A study of Mus musculus with 2 samples.

Results

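The G1 and S phase cyclins and kinases are the proteins that carry a cell from growth into DNA replication. The 10 genes described here were taken by name, as the D cyclins Ccnd1, Ccnd2 and Ccnd3, the E cyclins Ccne1 and Ccne2, cyclin A2 (Ccna2), and the kinases Cdk1, Cdk2, Cdk4 and Cdk6. They were found among the 20655 genes that received a symbol on the array, and every one of the 10 had at least 1 probe. In all, 16 probes read them. The arrays measured total RNA of whole lens at postnatal day 0, from mice of a mixed C57BL/6 background. The control group was labelled as wild-type and the other group as a Foxp1 knockout made specifically in the lens. The knockout combines a floxed Foxp1 allele, in the homozygous state, with the Cre transgene Pax6-L-Cre. Both samples carry this allele and driver in their treatment text, so the grouping rests on the genotype labels, and whether the control mice carried the Cre is not settled by them. The labels do not say how many animals gave lenses to a sample. Each group held 1 array, so the differences given here are between 2 arrays, without replicates and without p-values. Genotype and place on the slide, of which there was 1, cannot be told apart.

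In each cycle a D cyclin, made in response to growth factors, binds Cdk4 or Cdk6 and starts the phosphorylation of the retinoblastoma protein. E cyclins with Cdk2 complete that step, which frees E2F factors to turn on replication genes. Cyclin A2 then works with Cdk2 in S phase and with Cdk1 towards mitosis. In the lens only the cells of the anterior epithelium divide, and cells leave the cycle at the lens equator when they begin to form fibres. A whole lens is mostly fibre mass, so transcripts of dividing cells come from a small part of the tissue. In such a bulk sample a change in the number of dividing cells and a change in RNA per cell cannot be told apart.

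Foxp1 was checked first. Its 3 probes read 3460 and 970, 1677 and 464, and 97.5 and 38.4 on the control and knockout arrays, a mean difference of -1.67 on the log2 scale. The library labelled as knockout was therefore the lower one. All 10 fibre markers listed for the tissue, among them the crystallin gene Cryaa, were above background on both arrays, as were all 8 epithelium markers. No spot was saturated (0 spots). Spots well above background made up 67.5% of the control array and 56.9% of the knockout array.

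Among the measured cyclins and kinases, Ccnd1 and Ccna2 stood furthest from 0, both higher on the knockout array, and the others lay nearer to 0. Of the 10 genes, 8 were measured on both arrays, which means that at least 1 probe was called well above background on each. Ccne2 was above background on neither array, and Cdk6 was above background on the knockout array only. The difference is the log2 processed signal relative to the array's 75th percentile, knockout minus control. It lay above 0 for 7 of the 8 measured genes, where 50.7% of all 14254 measured genes and 67.5% of the 7127 at or above the median signal did so. The 7 include Cdk1, whose probes disagree, and nothing about the group is read from this count. Higher by at least 0.32 on the log2 scale, the smaller of the sizes counted here, were 2 of the 8, against backgrounds of 12.0% and 12.6%. Lower by that size were 0 of 8, a side that held 21.7% of all measured genes and 4.53% of the brighter ones. At least 2-fold higher were 0 of 8, with backgrounds of 1.0% and 0.828%, and at least 2-fold lower were also 0 of 8, with 5.89% and 0.393%. The median difference of the 8 was 0.18, or 1.14-fold. It was 0.004 over all measured genes, 0.08 over the brighter and -0.17 over the dimmer ones. With each array scaled to the 75th percentile over probes above background on both arrays, the members' median was 0.06 and that of all genes -0.12.

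**Figure D1:**
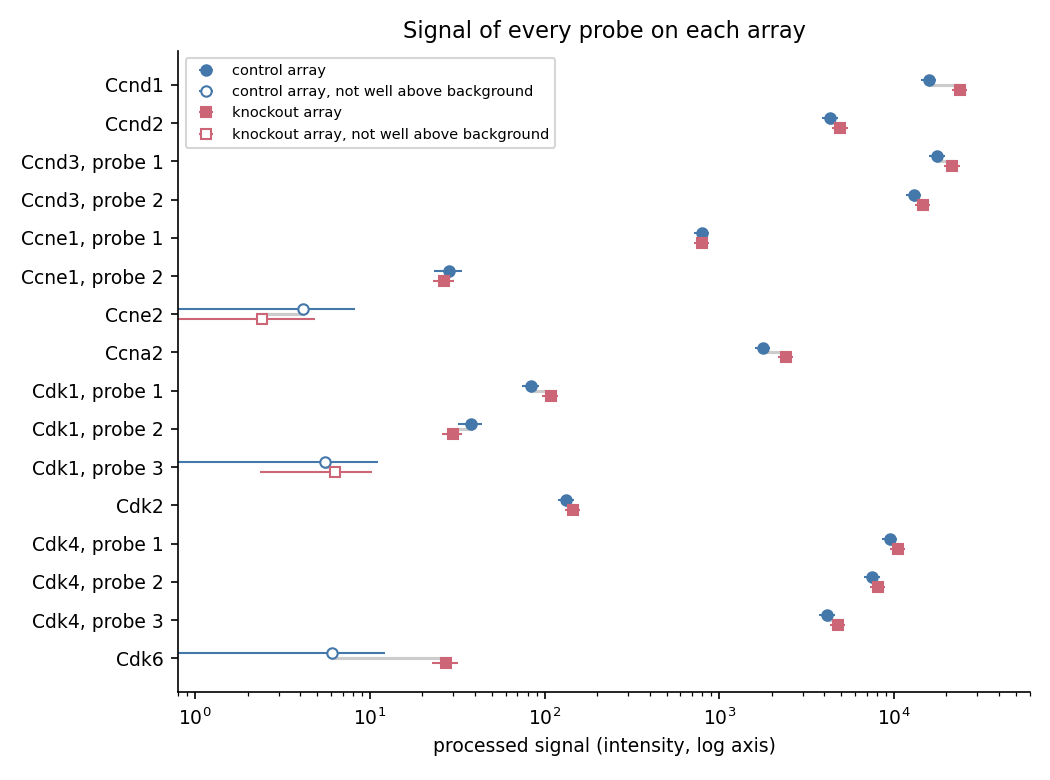
Processed signal of each of the 16 probes on the control array (circles) and the knockout array (squares), on a log axis of intensity; bars are the scanner software's error of the spot, and open symbols were not well above background. Ccnd1 moves from 15889 to 23773, while the probe of Ccne2 and the dimmest probe of Cdk1 have open symbols for both arrays.

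Cyclin D1 gave the clearest reading. Ccnd1, the D cyclin with a long-studied role as the sensor of growth factor signals, had a processed signal of 15889 in control and 23773 in knockout lens. The knockout value was the higher by 50.9%, a log2 difference of 0.59. A single probe and a single spot per array stood behind it. For scale, 2 errors are given. The SD of repeated spots was taken from 281 probes printed at least 5 times per array, and the scanner software adds its own error to each signal, which is close to a fixed share of a bright signal. For Ccnd1 these were 0.09 and 0.20 on the log2 scale, so the difference was 6.33 times the first and 2.91 times the second. Neither error covers the spread between animals, dissections or labelling reactions. Ccnd1 lay at percentile 96.2 of all measured genes and at 96.7 of the brighter ones.

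The other two D cyclins read higher by less. Ccnd2, the D cyclin with roles in cerebellar precursors, ovary and testis, gave 4331 in control and 4947 in knockout lens. Its difference of 0.20 had a spot SD of 0.09 and a scanner error of 0.20. Ccnd3, best known from blood cell precursors, was read by 2 probes of different transcripts. One read 17765 in control and 21651 in knockout lens and the other 12994 and 14684, with differences of 0.30 and 0.19. Their mean was 0.24 ± 0.08 (SD over 2 probes), and the gap between the probes was about the size of the spot SD of 0.09. The D cyclins all lay above 0 in each of the 10 settings tried, and they differed in size. Several of these settings were no check of sign. With array medians 95.0% of all genes lay above 0, and the choice among a gene's probes cannot move Ccnd1 or Ccnd2, which have 1 probe each. Because a ratio between genes on the same arrays does not depend on the factor that scales each array, the D cyclins can be set against each other. Ccnd1 exceeded Ccnd2 by 0.39 with a spot SD of 0.13 and Ccnd3 by 0.35 with 0.12. Against the scanner errors of 0.29 and 0.25, both gaps were under 2 errors wide. Ccnd2 and Ccnd3 differed by -0.04, inside either error.

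**Figure D2:**
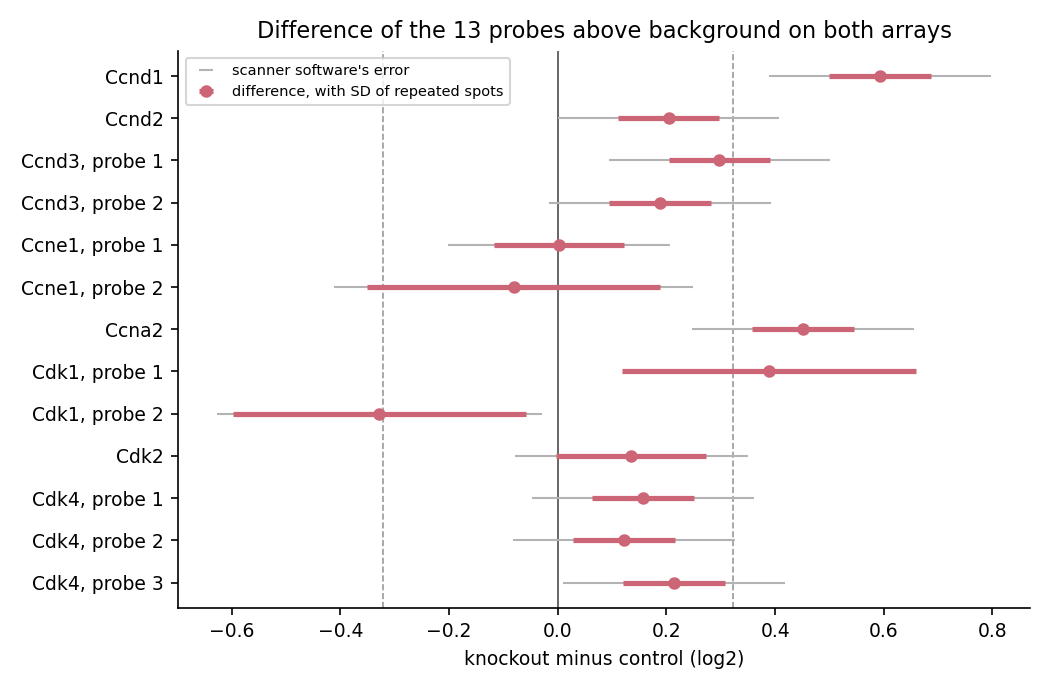
Difference between the arrays (knockout minus control, log2) for the 13 probes above background on both; thick bars are the SD of repeated spots of like signal, thin bars the scanner software's error, and dashed lines mark 0.32 on either side. The probes of Ccnd1 and Ccna2 lie at 0.59 and 0.45, and the pair of Cdk1 probes falls on either side of 0.

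For Ccnd3 the RefSeq table holds 2 start sites. The upstream window of the first is shown because, of the windows held, it alone has a match to the forkhead words searched. Factors such as Foxp1 bind this class of motif. Ccnd1, Ccnd2, Ccne2 and Ccna2 have no window there and were not searched. The words were TGTTTAC and TATTTAC on both strands, and 5.76% of 32851 windows of the same 250 bases hold a match. The match, in capitals, begins 243 bases before the start. The window is chr17:47504801-47505050 on the plus strand of GRCm38.p6, written 5′ to 3′ from RefSeq.
Ccnd3: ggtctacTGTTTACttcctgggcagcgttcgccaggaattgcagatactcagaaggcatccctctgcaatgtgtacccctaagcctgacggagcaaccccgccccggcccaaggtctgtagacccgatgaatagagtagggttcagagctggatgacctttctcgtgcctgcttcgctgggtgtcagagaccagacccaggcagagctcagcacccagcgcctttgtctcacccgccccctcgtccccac
A match is a description of letters and does not show a binding site. Which start site each of the 2 Ccnd3 probes reports was not analysed here.

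Cyclin A2 was the second gene higher by at least 0.32. Ccna2, which is made from S phase until early mitosis and is needed for both, gave 1783 in control and 2418 in knockout lens. The difference of 0.45 was 4.82 times the spot SD and 2.21 times the scanner error. It lay at percentile 93.2 of all measured genes and 93.5 of the brighter ones. Ccnd1 and Ccna2 differed from each other by 0.14, about the spot SD of 0.13.

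The E cyclins gave no higher reading. Ccne1, the cyclin that partners Cdk2 at the entry to S phase, gave 799.7 in control and 794 in knockout lens with its brighter probe. Its dim probe read 28.5 and 26.7. The differences were 0.002 and -0.08, with a mean of -0.04 ± 0.06 (SD over 2 probes). Ccne1 was the 1 measured gene below 0, and it lay above 0 in 5 of the 10 settings. These include array medians, where 95.0% of all genes lay above 0. It lay above the median of all genes in 3 of the 10. Relative to Ccne1, Ccna2 was 0.49 higher with a spot SD of 0.18 and a scanner error of 0.28. Ccnd1 was 0.63 higher than Ccne1, and among the 12 pairs compared this was the 1 gap wider than 2 scanner errors. Ccne2, the paralog of Ccne1, read 4.12 and 2.41, not well above background on either array, so it has no direction. Its single probe matched a RefSeq transcript, and probes annotated with other accessions were not used here.

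The 3 kinases measured on both arrays lay closer to 0 than the D cyclins and cyclin A2 in the setting reported. Cdk1 and Cdk2 did not keep that order under every setting. After loess, Cdk2 read 0.23, above Ccnd2 at 0.12 and Ccnd3 at 0.20. Cdk4, the main kinase partner of the D cyclins, was read by 3 bright probes. They read 9513 and 10521, 7525 and 8117, and 4158 and 4781 in control and knockout lens. All the probes were higher in the knockout, by 0.16, 0.12 and 0.21, and their mean of 0.16 ± 0.05 (SD over 3 probes) was a fold of 1.12. The mean had a spot error of 0.05, the smallest among the members, and a scanner error of 0.12. Ccnd1 exceeded Cdk4 by 0.43 with a spot SD of 0.11, whereas Ccnd2 and Ccnd3 exceeded it by 0.04 and 0.08, within the spot SDs of 0.11 and 0.09. Cdk6, the other kinase partner of D cyclins, read 6.09 in control lens, not well above background, and 27.3 in knockout lens. Set against the dimmest control spot with that flag (20.6), it was at least 1.34-fold higher. Only 1 dim spot per array stands behind that bound.

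Cdk2, the kinase partner of cyclins E and A, gave 133 in control and 145 in knockout lens. Its difference of 0.14 equalled its spot SD of 0.14 and lay within its scanner error of 0.21. Cdk1, the kinase of mitotic entry, was read by 3 dim probes that did not point the same way. The brightest read 83.3 and 108, a difference of 0.39, and the next read 37.9 and 29.9, a difference of -0.33. The third read 5.57 and 6.31, below background on both arrays. The mean of the 2 measured probes was 0.03 ± 0.51 (SD over 2 probes), so no direction can be given for Cdk1. Ccna2 exceeded Cdk2 by 0.32 and Cdk1 by 0.42, both less than 2 spot SDs.

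Over the members as cyclins and as kinases, the 5 measured cyclins ran from -0.04 to 0.59 with a median of 0.24, and the 3 measured kinases from 0.03 to 0.16 with a median of 0.14. The dim readings share a range in which added spike-in RNAs read lower on the knockout array. A spike-in at 80.2 in control read 38.0 in knockout, a difference of -1.07, and the 2 dimmer ones differed by -2.46 and -2.94. Spike-ins at 280, 566 and 9849 differed by -0.07, -0.21 and -0.03. The brightest Cdk1 probe lay close to the first of these spike-ins and the other Cdk1 probes and the dim Ccne1 probe below it. Cdk2 lay between the spike-ins at 80.2 and 280, and Ccnd1, Ccnd2, Ccnd3, Ccna2 and Cdk4 lay above the one at 566. The brighter Ccne1 probe, with a difference of 0.002, also lay above that spike-in. The part of this dim range in the readings of Cdk1, Cdk2 and the dim Ccne1 probe was not tested.

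**Figure D3:**
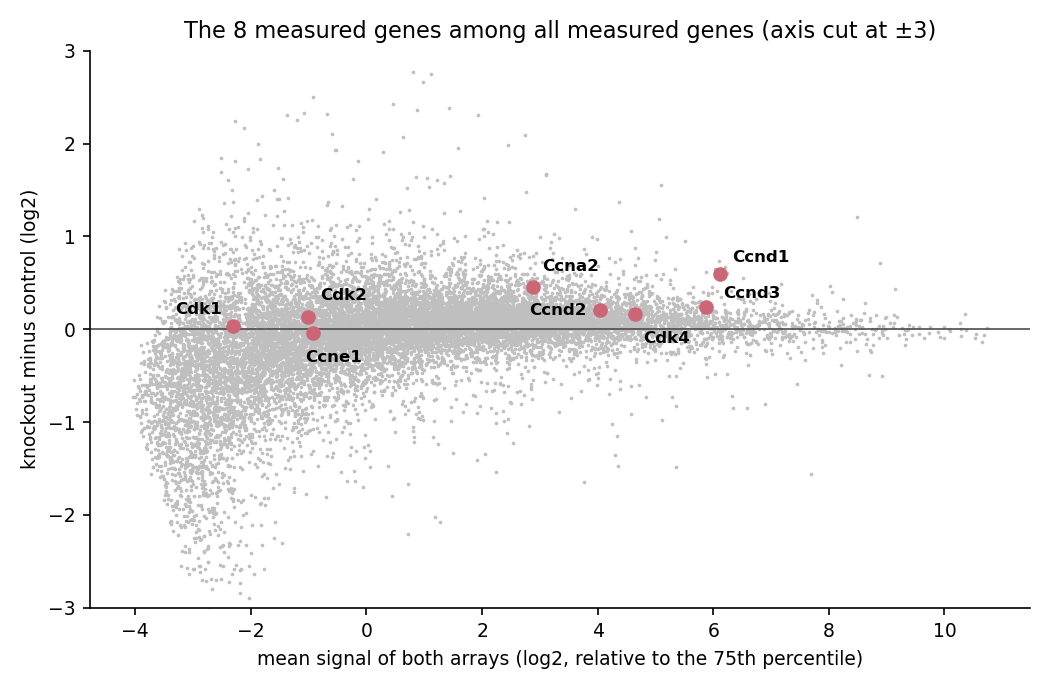
Difference (knockout minus control, log2) against the mean scaled signal of both arrays (log2) for all measured genes (grey) and the 8 measured cyclins and kinases (red); the vertical axis is cut at 3 on either side. Ccnd1 and Ccna2 lie at 0.59 and 0.45, and the grey cloud bends below 0 at the dim end, where the dimmer genes have a median of -0.17.

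The RefSeq table holds upstream windows for 6 of the 10 genes, Ccnd3, Ccne1, Cdk1, Cdk2, Cdk4 and Cdk6, and none for Ccnd1, Ccnd2, Ccne2 and Ccna2. The windows of Cdk1, Cdk2 and Cdk4 are shown because they hold the motifs of cell cycle control and of Myc factors. Searched on both strands were the E2F words TTTCCCGC, TTTGGCGC, TTTCGCGC and TTTGCCGC, the CHR element TTTGAA of genes expressed late in the cycle, the box CCAAT and the E-box CACGTG, to which Myc factors bind. Among all windows 1.86% held an E2F word, 16.0% the CHR letters, 33.8% CCAAT and 6.02% the E-box. All matches are in capitals, and each sequence ends at the base before the start.
Cdk1, chr10:69352913-69353162, minus strand: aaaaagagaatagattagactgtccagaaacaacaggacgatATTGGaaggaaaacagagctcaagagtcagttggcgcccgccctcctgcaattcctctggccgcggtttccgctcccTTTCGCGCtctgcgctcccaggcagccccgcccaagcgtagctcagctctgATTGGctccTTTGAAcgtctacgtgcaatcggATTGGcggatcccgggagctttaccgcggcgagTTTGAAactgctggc
Cdk2, chr10:128705052-128705301, minus strand: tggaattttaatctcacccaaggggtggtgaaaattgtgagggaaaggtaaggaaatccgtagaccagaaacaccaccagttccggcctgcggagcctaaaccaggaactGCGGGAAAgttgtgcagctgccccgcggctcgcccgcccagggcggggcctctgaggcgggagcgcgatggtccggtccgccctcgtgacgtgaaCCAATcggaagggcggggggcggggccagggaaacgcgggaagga
Cdk4, chr10:127063285-127063534, plus strand: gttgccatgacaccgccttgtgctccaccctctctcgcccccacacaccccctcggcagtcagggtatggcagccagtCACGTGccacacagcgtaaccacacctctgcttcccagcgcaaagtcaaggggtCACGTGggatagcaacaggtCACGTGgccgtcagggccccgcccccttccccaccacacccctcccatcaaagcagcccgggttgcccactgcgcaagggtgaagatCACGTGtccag
The Cdk1 window holds 1 E2F word, beginning 131 bases before the start, with 2 CHR matches and 3 CCAAT matches. The Cdk2 window holds 1 E2F word and 1 CCAAT match. The Cdk4 window holds 4 E-boxes and no E2F word (0 matches). The Cdk6 window holds 1 E-box, and that of Ccne1 holds no match to any of these words (0 matches). No difference between arrays was read from these letters.

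The regulators around these genes were described from lists of the same pathway, whose counts stand beside 50.7% of all measured genes and 67.5% of the brighter ones above 0, and 12.0% and 12.6% higher by at least 0.32. Lower by that size were 21.7% of all measured genes and 4.53% of the brighter ones. Nothing particular to a list is read from a share near these. CDK inhibitors, which block the kinases, were split, with 4 of 7 above 0 and a median of 0.05 that was -0.03 after loess and -0.07 with the 75th percentile over probes measured on both arrays. Cdkn1a, the p53-responsive inhibitor, read 1.41 from 2 probes at 0.09 and 2.72, and Cdkn2c, an inhibitor of Cdk4 and Cdk6, was 2.04-fold higher. Cdkn2a, which inhibits the same kinases, was 2.04-fold lower at a dim signal, and Cdkn2b, also dim, lay at -0.61. Of 12 measured Rb, E2F and DP genes, 8 lay above 0, close to the share of the brighter genes, with 1 higher and 1 lower by at least 0.32. Their median of 0.10 was -0.03 under that same percentile, where 0 were past 0.32 higher. Rb1, the retinoblastoma protein that cyclin D kinases phosphorylate, lay at 0.39, E2f2 at 0.31 and E2f7, a repressing E2F with probes at -1.54 and 0.73, at -0.41.

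Enzymes that switch the kinases on or off had 6 of 8 above 0, 2 higher and 1 lower by at least 0.32, and a median of 0.23. Wee1, which inhibits Cdk1, read 141 and 249, a difference of 0.83, and the activating phosphatases Cdc25c and Cdc25b lay at 0.54 and 0.28. Cdk7, the kinase that activates other CDKs, read 173 and 150, a difference of -0.35. After normexp 1 gene was past 0.32 higher, and over the brighter probes 0 were. Of 13 measured genes of cyclin turnover, 11 lay above 0, with 2 past 0.32 and a median of 0.12. With the percentile over probes measured on both arrays these were 1 and -0.01. Cdc20, which directs cyclin destruction in mitosis, lay at 0.76. The inputs to D cyclin transcription had 7 of 9 above 0, 1 past 0.32 higher and 2 past it lower. The 2 of 9 lower are near the 21.7% of all measured genes. After loess 3 were past 0.32 higher, where 16.3% of all genes were. The list median of 0.03 was below 0 after loess, quantile normalization and that percentile. Lef1 and Tcf7l2, factors of Wnt signalling through which Ccnd1 can be induced, lay at -0.52 and -0.34, and Gli1 lay at 0.50. All of them were among the 7127 dimmer genes, of which 2771 were lower and 808 higher by at least 0.32. Mycl, a Myc family gene above background on the control array only, was at least 2.90-fold lower from a signal of 35.4.

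Genes that act after these cyclins had list medians above 0 in each of the 10 settings. The setting of array medians put 95.0% of all genes above 0, so it is no check of that sign. Of 14 measured genes of replication licensing, 12 lay above 0, 10 of them by at least 0.32, and the median was 0.36. That count of 10 was 4 with the percentile over probes measured on both arrays and 7 after loess or quantile normalization, settings in which 6.91%, 16.3% and 24.8% of all genes passed the same size. Mcm10 and Mcm3, of the replication helicase machinery, lay at 0.95 and 0.60, and Cdc6, which loads the helicase, lay at -0.50 at a dim signal. Of 12 S phase enzymes 11 lay above 0, but only 2 by at least 0.32, with 1 past it lower and a median of 0.26. With the percentile over probes measured on both arrays that count of 2 was 1 and the median 0.135. Rrm2, the ribonucleotide reductase subunit, lay at 0.55 and Pole, a replicative polymerase, at -0.53. Of 14 measured mitotic genes 13 lay above 0, 12 of them by at least 0.32 (9 with that percentile), and the median was 0.50. Cenpe, Tpx2, Bub1 and Mki67 lay at 0.71, 0.64, 0.60 and 0.59. The remaining cyclins and kinases had 17 of 22 above 0, 7 past 0.32 (11 after quantile normalization) and a median of 0.19. The mitotic cyclins Ccnb2 and Ccnb1 lay at 0.54 and 0.49, near Ccna2. Ccng1 and Ccng2, cyclins linked to stress, lay at 0.60 and 0.73, Ccng2 at a dim signal. No list count here was tested against chance.

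**Figure D4:**
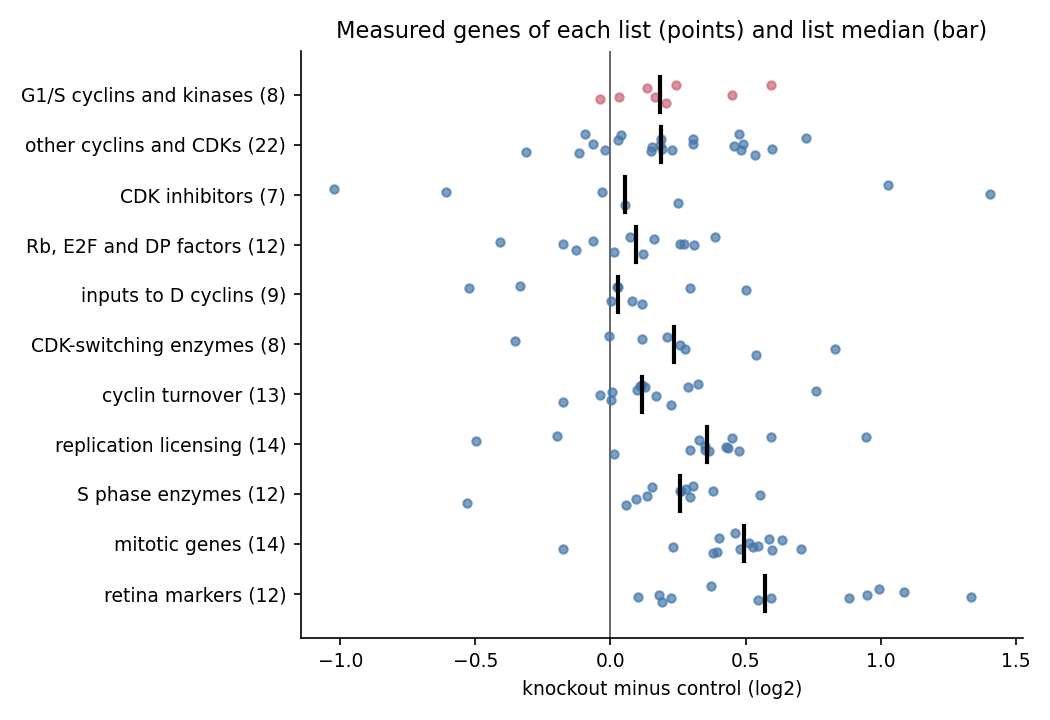
Difference (knockout minus control, log2) of the measured genes of each list, as points, with the list median as a bar and the number measured in brackets. The cyclins and kinases (red) have a median of 0.18, the mitotic genes 0.50 and the retina markers 0.57.

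Markers of other tissues differed as well. For the counts here, 50.7% of all measured genes lay above 0, and 12.0% were higher and 21.7% lower by at least 0.32. Among the brighter genes these shares were 67.5%, 12.6% and 4.53%. All 12 listed retina markers lay above 0, 8 of them by at least 0.32, and their median was 0.57. Their summed signal, over the brightest probe of each gene, came to 15772 in control and 21113 in knockout lens, a difference of 0.43. Such a sum is led by the brightest probes, and Hes5 alone gave 6732 of it in control lens. The retina markers at least 2-fold higher were Pou4f2, at 2.52-fold, and Fabp7, at 2.12-fold. That size was reached by 1.0% of all measured genes and 0.828% of the brighter ones. The retina progenitor factors Rax and Lhx2 differed by less, at 0.19 and 0.10, and both were named after their values were seen. Mesenchyme markers were dim, with 5 of 5 measured above 0, Col3a1 at 2.84-fold and Col1a1 at 2.06-fold higher. Dcn and Lum were at least 7.18-fold and 2.39-fold higher. Endothelium, macrophage, erythroid and pigment markers had medians of -0.16, -0.14, -0.30 and -0.39. Array medians put all of these above 0, as they did 95.0% of all genes, so that change of sign says nothing of these lists. Over the brighter probes the endothelium and macrophage medians were 0.03 and 0.05, below the 0.09 of all genes there. Under quantile normalization the macrophage median was 0.06, the same as that of all genes. Rpe65 was below background on both arrays. Emcn and Ptprc were past 2-fold lower, from dim control signals of 55.6 and 40.3. Among the 7127 dimmer genes 811 were at least 2-fold lower, against 28 of the 7127 brighter ones. On the same endothelium and macrophage lists Tek and Cx3cr1 lay at 0.86 and 0.53. Among the lens epithelium markers, the class that holds the dividing cells, 4 of 8 lay above 0, with 2 higher and 2 lower by at least 0.32. The 2 of 8 lower are near the 21.7% of all measured genes. The list median was 0.05 (-0.08 with the percentile over probes measured on both arrays). Npnt was 2.08-fold lower and Gja1 lay at -0.70, while Sfrp2, which is also on the retina list, and Foxe3 lay at 0.55 and 0.34. Hes5, Tek, Cx3cr1, Gja1, Sfrp2 and Foxe3 were named after their values were seen. The part of retina or mesenchyme RNA in the readings of Ccnd1, Ccna2 and the other cyclins and kinases was not tested.

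The order of the genes depended in part on how the arrays were brought to 1 scale. Over the 10 settings, and relative to the median of all genes in each, Ccnd1 lay between 0.505 and 0.755 and was past 0.32 in all 10. Array medians and the other percentile shift all genes alike, so once the median is taken off they repeat the reported setting and are no separate check. The choice among a gene's probes cannot move Ccnd1 or Ccna2 except through that median. Ccna2 lay between 0.27 and 0.61 and was past 0.32 in 9, the exception being quantile normalization. Ccnd2, Ccnd3 and Cdk4 stayed above the median of all genes in each of the 10, by as little as 0.06, 0.15 and 0.03 under quantile normalization. That median includes the dimmer genes. Among the brighter genes alone Ccnd2, Ccnd3 and Cdk4 lay at percentiles 74.6, 79.9 and 67.7 in the setting reported. Before that median was taken off, quantile normalization gave 0.79 for Cdk1 and 0.55 for Ccne1, and loess gave 0.41 and 0.24. With the brightest probe of each gene Cdk1 read 0.39 and Ccne1 0.002. Cdk2 read -0.02 after normexp correction.

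**Figure D5:**
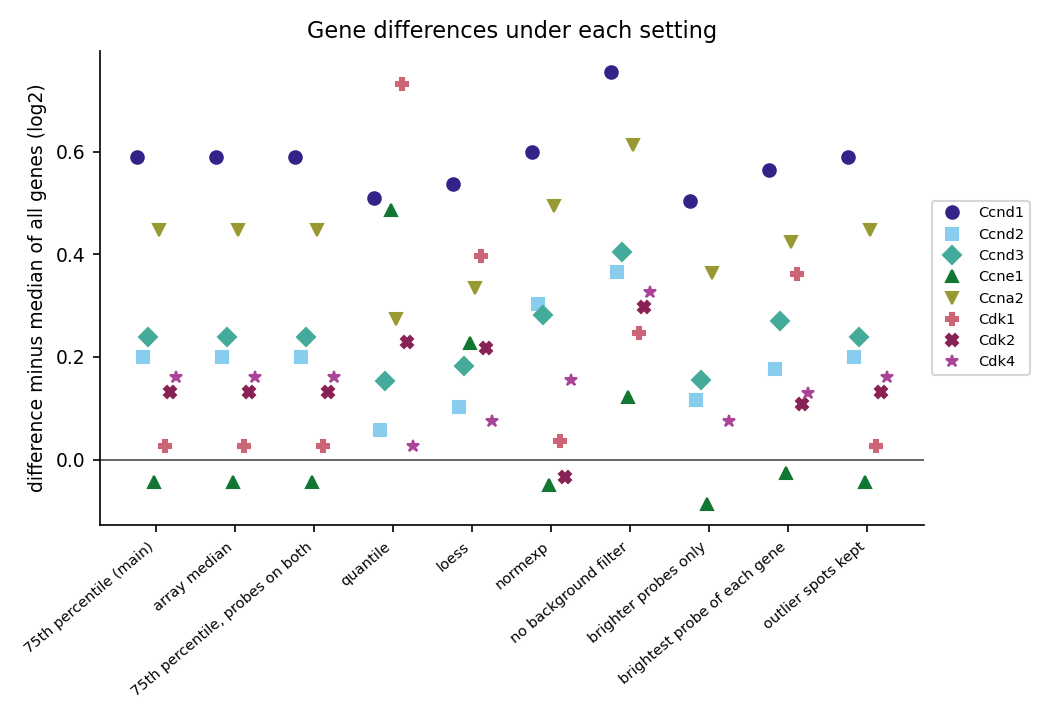
Difference of each of the 8 measured genes minus the median difference of all genes (log2) under each of 10 settings; each symbol is a gene. Ccnd1 lies highest except under quantile normalization, where Cdk1 lies above it, and Ccne1 crosses 0.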

How the data were processed

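Total RNA from newborn lens was hybridised to Agilent 1-colour arrays, 1 control and 1 knockout. The deposited values are spot intensities from Agilent Feature Extraction 10.7.3.1, background-subtracted by that software and laid out on build mm9, per the file headers. The flags for outliers, saturation and signal well above background are the authors' deposited values, and the headers record no scaling of 1 array to the other.

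Control spots and outlier spots were left out. The log2 intensity was scaled to the 75th percentile of each array, spots of a probe were averaged, and a gene took the mean of its probes above background on both arrays. With 1 array per group there is no test and no p-value. Of 55655 probes, 27225 were named by RefSeq transcript accession through a GRCm38.p6 table and 28430 were not named. Normexp used limma 3.58.1. The steps of the reported setting were tested on simulated data, made from the control array's signals with even noise and the control's flags. That test did not cover the other settings or a loss of signal in the dim range.

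The members, lists and folds were chosen with earlier results of these data known. Beyond the 10 genes and Foxp1, the genes named are up to 4 per pathway list with the largest difference, those at least 2-fold apart (bounds included), and markers below background on both arrays. Some genes of the marker lists are not reported here by name.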

Additional observations from a re-analysis of the deposited data

How the results depend on the processing

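Scaling set the size of the median difference of the measured cyclins and kinases. Array medians put the median of all genes at 1.09 and that of the members at 1.27, with Foxp1 at -0.58 and the pigment markers at 0.69. There 8 of 8 members were past 0.32, as were 90.7% of all genes. All 8 were also at least 2-fold higher, a size that the median of all genes passed as well. Nothing about the members is read from these counts. The 75th percentile over probes above background on both arrays put them at -0.12 and 0.06, with Foxp1 at -1.79. Relative to all genes the members' median was 0.18 under both, as in the report. Quantile normalization gave 0.31, 4 of 8 members past 0.32, where 24.8% of all genes were, and Foxp1 at -1.54. With no background filter, dim Cdk6 entered as 1 member 2-fold higher and Ccne2 as 1 member past 0.32 lower. Foxp1 was -1.34 after normexp, -1.83 over the brighter probes and -1.82 with its brightest probe. Array medians and that percentile shift all genes alike, and the causes of the other shifts were not tested. The members' median stayed above 0 in each of the 10 settings, but several were no check of sign. Array medians put 95.0% of all genes above 0. Keeping outlier spots could act on the members only through the scale, as 0 of their spots were flagged. Normexp was run on median spot signals in place of the planned mean signals, a choice made after seeing the data. Cdk1 and Cdk2 had no brighter probe and give no value under that filter. The signal over background limits Ccne2, Cdk6 and Cdk1. No paired analysis was possible because each group held 1 array.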
